A study of Mus musculus with 32 samples.

Results

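The 10 genes followed here mark astrocytes, the star-shaped glial cells of the brain, and were measured in RNA taken separately from the soma and the dendrites of 16 single mouse hippocampal neurons. They are Slc1a3, Slc1a2, Aqp4, Gja1, Aldh1l1, Glul, Gfap, Apoe, Sparcl1 and Clu. They were found by symbol in the table of 3′UTR reads per gene, which held 44081 genes, and each of the 10 had reads in at least 1 dendrite library and 1 soma library. Neurons of C57BL/6 embryos at embryonic day 18 were kept in culture for 15 days without any labelled treatment. The dendrites of each neuron were cut from the cell body and drawn into one pipette and the soma into another, which gave 16 dendrite and 16 soma libraries paired by neuron. The polyadenylated RNA was amplified by in vitro transcription in 3 rounds for neurons 1 to 4 and in 2 rounds for neurons 5 to 16. Spiked-in control RNA was recorded at a dilution of 0 for neurons 1 and 2. Each neuron is 1 replicate, but the labels do not say which neurons shared a culture dish or an embryo, so the p-values below measure the spread between these neurons.

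Astrocytes surround neurons in brain tissue and in culture, and their fine processes lie against dendrites and synapses. They take up glutamate released at synapses through the transporters encoded by Slc1a3 and Slc1a2, turn it into glutamine with the enzyme encoded by Glul, and move water and small molecules through the channels encoded by Aqp4 and Gja1. They also release lipid carriers and matrix proteins, such as those encoded by Apoe, Clu and Sparcl1. Several of these genes are also expressed in some neurons, Sparcl1, Clu, Slc1a2 and Glul among them, whereas Gfap, Aqp4, Aldh1l1, Slc1a3 and Gja1 are used to tell astrocytes from neurons. RNA that a neuron made itself and RNA of another cell drawn into the same pipette cannot be told apart in these counts.

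The libraries held 646521 to 6954420 reads on 3′UTRs in dendrites and 925525 to 21169974 in somas, and 1570 to 9871 genes had 10 or more reads in a dendrite against 6041 to 12185 in a soma. Mitochondrially encoded genes took 2.39% to 35.8% of the reads in dendrites and 0.277% to 8.13% in somas. Levels (RPM) are reads scaled to 1000000 3′UTR reads of the same library and are not divided by 3′UTR length, so that they compare libraries and not genes. A gene is called detected at 10 or more reads, a limit the study used when it compared the genes of a soma and its dendrites. The neuronal markers were present in both compartments. Map2, a microtubule-associated protein of dendrites, had a median of 2143 RPM in dendrites and 363.5 in somas and was higher in dendrites by 2.66 on the log2 scale (SE 0.49, adjusted p = 0.00202, edgeR quasi-likelihood test). Syt1, of the synaptic vesicle, was detected in all 32 libraries, Snap25 in 15 dendrites and 16 somas, Tubb3 in 14 and 16, Grin1 in 11 and 14, Camk2a in 13 and 12, Slc17a7 in 13 and 10 and Neurod6 in 8 and 8. Gad1, which makes the inhibitory transmitter GABA, was detected in all 32 libraries and was higher in somas (log2 -1.58, SE 0.38, adjusted p = 0.0148). Among housekeeping genes, Actb, Ppia, Ubb and Eef1a1 were detected in all 32 libraries and Gapdh in 15 dendrites and 16 somas.

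The question addressed was how many dendrite samples carry astrocyte RNA, and whether the same samples carry several of these RNAs. All 10 were detected in at least 2 of the 16 dendrites. The number of detected genes among the 10 was between 1 and 10 in a dendrite (median 6) and between 3 and 8 in a soma (median 5.5). Of these, 4 genes, Slc1a2, Glul, Sparcl1 and Clu, were detected in 14 to 16 of the somas, and the other 6 in 2 to 8. This division at 12 somas was made after the values were seen, on the soma counts themselves, so any order of somas and dendrites within either set is fixed in part by the choice and is read as no result.

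**Figure D1:**
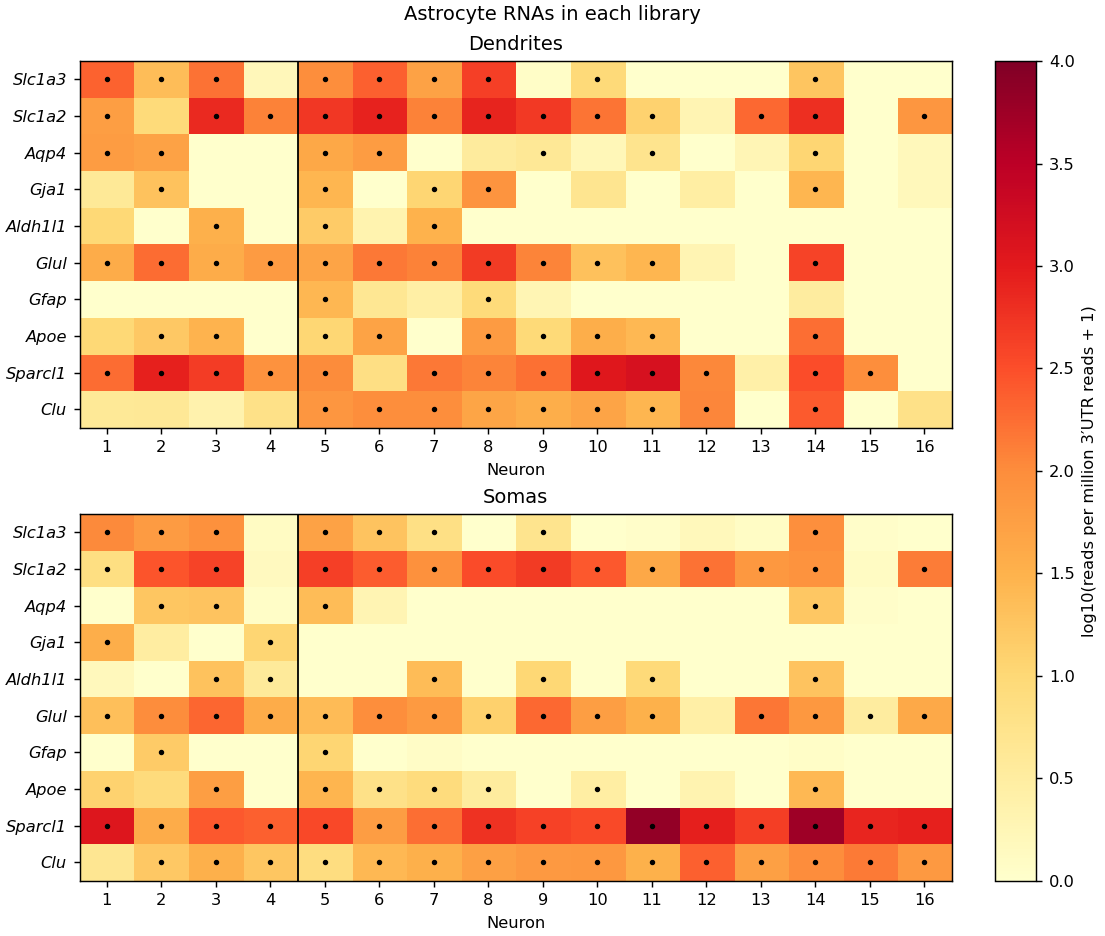
Level of each of the 10 astrocyte genes (rows) in dendrites (upper) and somas (lower) of neurons 1 to 16 (columns), as colour on a log10 scale of RPM plus 1; a dot marks 10 or more reads, and the vertical line parts the neurons of 3 and of 2 amplification rounds. Slc1a2 and Sparcl1 were detected in 13 dendrites each, whereas Gfap was detected in 2.

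Slc1a3 encodes the glutamate and aspartate transporter of astrocytes and radial glia (chromosome 15, 8634124 to 8710764, minus strand, mm10). It was detected in 9 dendrites and 8 somas, and in both compartments of 7 neurons. Its level in dendrites ran from 0 to 423.8 RPM with a median of 12.5, and in somas from 0 to 106.4 RPM with a median of 2.38. The dendrites of neurons 8, 6, 1 and 3 were highest, at 423.8, 227.1, 217 and 161.9 RPM, and the ranges of the compartments overlapped. Neuron 8 was the extreme case, with 1024 reads in its dendrites and 0 in its soma, and this library held 53.3% of all Slc1a3 reads in dendrites. In neuron 9 the order was the opposite, with 1 read in the dendrites and 89 in the soma. Dendrites were the higher compartment in 8 neurons and the soma in 7. The fitted difference, dendrites over somas, was 0.71 on the log2 scale (SE 1.33, adjusted p = 0.718), which is within the spread between neurons.

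Slc1a2 encodes the main glutamate transporter of mature astrocytes (chromosome 2, 102658659 to 102790784, plus strand). Its RNA was detected in 13 dendrites and 14 somas, among them both compartments of 12 neurons. Dendrites had 0 to 811 RPM (median 138) and somas 0.284 to 481.1 RPM (median 147.6). The ranges overlapped, but the dendrites of neurons 6, 8, 3, 14, 5 and 9, at 811, 781.8, 701, 621.5, 504.7 and 501.1 RPM, lay above the highest soma. Dendrites were the higher compartment in 10 neurons and the soma in 6. Neuron 9 carried most reads in both, with 3485 in dendrites and 10184 in its soma. The dendrites of neuron 15 had 0 reads and its soma 3. The fitted difference was 0.45 (log2, SE 0.82, adjusted p = 0.711).

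Aqp4 encodes the water channel that lines the endfeet of astrocytes on blood vessels (chromosome 18, 15389496 to 15410982, minus strand). Detection was reached in 7 dendrites and 4 somas. The level in dendrites ran from 0 to 60.9 RPM (median 1.64) and in somas from 0 to 22.6 RPM (median 0). The dendrites of neurons 1, 6, 2 and 5 were highest, at 60.9, 60.3, 49.5 and 42.1 RPM, while the soma of neuron 1 had 0 reads. Dendrites were the higher compartment in 10 neurons, the soma in 4, and both were at 0 in the other 2. With log2 3.23 (SE 1.41) Aqp4 had the largest fitted difference of the genes tested here among the 10, and it did not pass the test over all genes (p = 0.0256, adjusted p = 0.120, edgeR quasi-likelihood test). With DESeq2 the same comparison passed (log2 3.39, adjusted p = 0.00543), the lowest of 28 other settings, over which the adjusted p went up to 0.975. Of the Aqp4 reads, 48.1% lay in the last 500 bases before an annotated 3′ end, the lowest share among the 10 genes.

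Gja1 encodes connexin 43, the main gap junction protein between astrocytes (chromosome 10, 56377330 to 56402513, plus strand). The dendrites of 5 neurons and the somas of 2 carried it, with no neuron in both groups. Levels in dendrites were 0 to 78.6 RPM (median 1.23) and somas 0 to 35.5 RPM (median 0). The 5 dendrites belonged to neurons 8, 14, 5, 2 and 7, with 190, 50, 28, 12 and 11 reads, and the somas to neurons 4 and 1, with 73 and 69 reads. In the dendrites of neuron 8 lay 62.3% of the dendritic Gja1 reads, and its soma had 0 reads of 5055456. A count of 0 in somas other than those of neurons 1, 2 and 4 stands beside soma libraries that were mostly deeper than the dendrite libraries. Gja1 had too few libraries with a read to enter the fit. In the fit without this filter the difference was 3.77 (log2, SE 1.5, adjusted p = 0.209), a value that depends on the small count added to each library.

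Aldh1l1 encodes a folate enzyme often used to mark astrocytes as a class (chromosome 6, 90486427 to 90600203, plus strand). Its RNA was found in 3 dendrites, those of neurons 3, 7 and 5 with 53, 34 and 15 reads, and in 6 somas. The range was 0 to 32.5 RPM in dendrites and 0 to 22.2 RPM in somas, with a median of 0 in both. The somas that carried it were those of neurons 9, 7, 14, 11, 3 and 4, with 192, 130, 113, 97, 44 and 20 reads. It was thus found in more somas than dendrites, and in both compartments of 2 neurons. It stayed out of the fit, and without the filter its difference was -0.31 (log2, SE 1.89, adjusted p = 0.949). The predicted genes Gm45901 and Gm44236 overlap it on the same strand in GENCODE vM21, so part of its reads may be shared with them.

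Glul encodes glutamine synthetase (chromosome 1, 153899944 to 153909723, plus strand). Reads reached the limit in 12 dendrites and 15 somas, and each of the 12 dendrites had it in its soma too. Dendrites had 0 to 476.4 RPM (median 41.6) and somas 1.65 to 197.1 RPM (median 48.0). The dendrites of neurons 8 and 14 stood above all somas, at 476.4 and 405.4 RPM, and those of neurons 12, 13, 15 and 16 had 2, 0, 0 and 0 reads. In neuron 13 the order was the opposite, with 1978 reads in its soma and 0 in its dendrites. Dendrites were higher in 8 neurons and the soma in 8. The fitted difference was -0.21 (log2, SE 0.95, adjusted p = 0.890).

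Gfap, the intermediate filament of astrocytes that is classically used to stain them, was the rarest of the 10 (chromosome 11, 102887336 to 102900912, minus strand). It was detected in the dendrites of neurons 5 and 8, with 27 and 19 reads, and in the somas of neurons 5 and 2, with 21 and 13 reads. The highest levels were 25.8 RPM in a dendrite and 14.1 RPM in a soma, and the median was 0 in both compartments. At least 1 read was present in 6 dendrites and 4 somas. With so few reads, a level below about 10 reads in the other libraries was not measurable at this depth. Without the filter its fitted difference was 2.20 (log2, SE 1.42, adjusted p = 0.515).

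Apoe encodes apolipoprotein E, the lipid carrier that astrocytes secrete (chromosome 7, 19696109 to 19699188, minus strand). It was detected in 9 dendrites and 8 somas, in both compartments of 6 neurons. Dendrites had 0 to 172.9 RPM (median 9.20) and somas 0 to 56.3 RPM (median 2.14). The dendrites of neuron 14 were highest, followed by those of neurons 8, 6 and 10 at 63.7, 48.7 and 35.0 RPM. In neurons 9 and 11 the dendrites had 58 and 137 reads and the somas 0, although these somas held 21169974 and 11702958 reads in all. In neuron 7 the dendrites had 0 reads and the soma 43. The fitted difference was 1.56 (log2, SE 1.48, adjusted p = 0.458), within the spread between neurons.

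Sparcl1 encodes hevin, a secreted matrix protein that bridges synapses (chromosome 5, 104079111 to 104113733, minus strand). All 16 somas and 13 dendrites carried it. Levels ran in dendrites from 0 to 1450 RPM (median 130.4) and in somas from 35.7 to 6753 RPM (median 426.4). The somas of neurons 11 and 14 stood far above the others, at 6753 and 5515 RPM, and the soma was the higher compartment in 13 neurons. Neurons 2, 3 and 10 had more in dendrites, with 849.2 against 35.7 RPM in neuron 2. The fitted difference was -1.96 (log2, SE 0.71, p = 0.00758, adjusted p = 0.0720), which did not pass the threshold. Without neuron 2 it passed (log2 -2.24, adjusted p = 0.0347), as it did in 5 of 28 other settings in all, with adjusted p from 0.000442 to 0.944. In the 4 neurons of 3 rounds alone the difference was 0.60, toward dendrites.

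Clu encodes clusterin, a secreted chaperone and lipid carrier (chromosome 14, 65968483 to 65981547, plus strand). Its RNA was detected in 9 dendrites and 15 somas, and each of the 9 had it in the soma too. Dendrites had 0 to 252.2 RPM (median 30.9) and somas 3.6 to 224.3 RPM (median 43.4), so that the ranges overlapped. The dendrites of neurons 1 to 4, amplified in 3 rounds, had 3, 2, 2 and 8 reads, all under the detection limit, against 9 of the 12 dendrites of 2 rounds above it. In the somas of 3 rounds the gene was detected in 3 of 4. The fitted difference was -0.88 (log2, SE 1.04, adjusted p = 0.553), and its difference between 3 and 2 rounds did not pass the test of the interaction (adjusted p = 1, edgeR quasi-likelihood test).

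**Figure D2:**
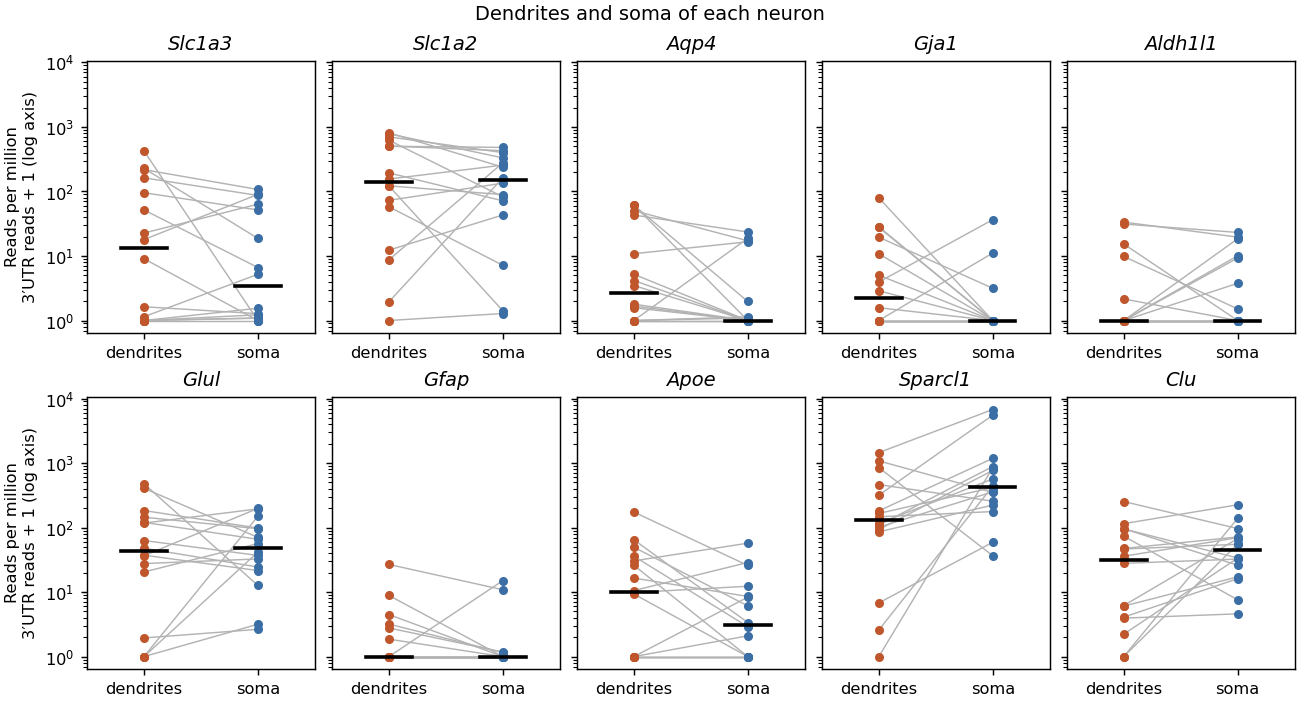
RPM plus 1 (log axis) of each gene in the dendrites and the soma of the same neuron, joined by a line; each point is 1 library of the 16 per compartment and the black bar is the median. Sparcl1 was higher in the soma of 13 neurons and Aqp4 in the dendrites of 10.

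Over the whole table, 10880 genes were tested, those with any read in 16 or more of the 32 libraries. Of them 6.53% passed an adjusted p of 0.05, 0.827% as higher in dendrites and 5.71% as higher in somas. Of the 10 astrocyte genes, 7 entered the fit, and 0 of the 7 passed the test in either direction, while 2 had an unadjusted p under 0.05, Aqp4 toward dendrites and Sparcl1 toward somas. With DESeq2, which called 4.26% of all genes higher in dendrites and 46.2% in somas, these 2 genes passed in the same directions (Sparcl1 log2 -2.26, adjusted p = 0.00135). The median gene lay at log2 -1.49. Relative to the median gene, 6 of the 7 lay on the side of the dendrites, all but Sparcl1, and the median of the 7 was 1.94 above that gene (0.45 before subtraction). On the same side lay 8 of 8 neuronal, 5 of 5 housekeeping, 4 of 5 oligodendrocyte and 2 of 3 inhibitory neuron genes tested. This side was thus not particular to the astrocyte genes. Aqp4 lay at the 99th percentile of all genes, Apoe at the 93.5th, Slc1a3 at the 86.9th, Slc1a2 at the 84.6th, Glul at the 75.5th, Clu at the 63.0th and Sparcl1 at the 39.6th. These places describe the 7 genes that passed the filter and are not a test. The sign of a difference depends on the setting: after the dendrite libraries were rescaled to bring the median gene to log2 -0.046, Glul and Clu lay above 0. With scaling on the spiked-in control RNA, under which the median gene lay at -3.96, Slc1a3 and Slc1a2 lay below 0. The spike-in fit also left out neurons 1 and 2, so it differs from the main fit in its neurons as well.

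**Figure D3:**
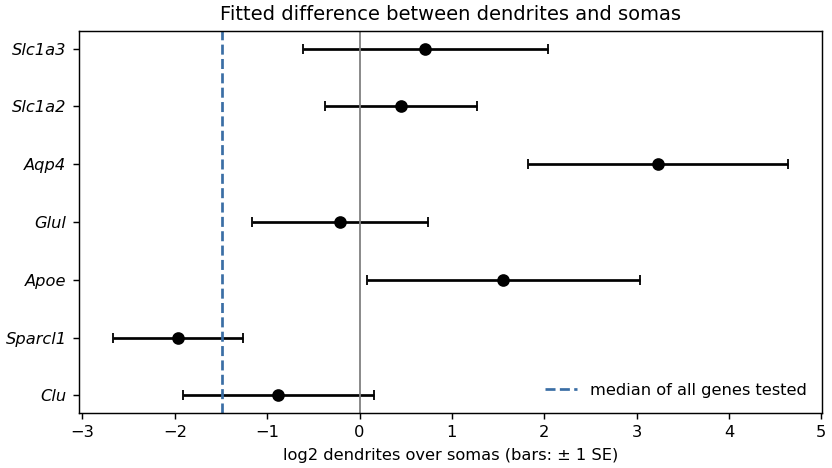
Fitted log2 difference, dendrites over somas, of the 7 astrocyte genes that entered the fit, with bars of 1 SE, from 16 neurons; the dashed line is the median of the 10880 genes tested. Sparcl1 lies left of the dashed line at -1.96 and Aqp4 farthest right at 3.23.

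The dendritic read fraction of a gene, its dendrite RPM over the sum of dendrite and soma RPM of the same neuron, was taken where the pair had 10 or more reads. Its median was 0.874 for Apoe, 0.869 for Aqp4, 0.723 for Gfap, 0.662 for Slc1a3, 0.602 for Glul, 0.578 for Slc1a2, 0.367 for Clu, 0.289 for Aldh1l1 and 0.173 for Sparcl1. For Gja1 the median was 1, since 4 of its 7 neurons had reads in dendrites alone. With 50 or more reads in the pair the median was 0.538 for Gja1 (4 neurons) and 0 for Aldh1l1 (5 neurons), so both rest on few reads. The fractions of one gene spanned most of the scale. For Slc1a3 the fraction was over 0.9 in 4 of 10 neurons and under 0.1 in 1, and for Apoe it was over 0.9 in 5 of 11 and under 0.1 in 1. Neighbours in the order of medians did not differ beyond this spread.

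Taking the 6 genes found in few somas together (Slc1a3, Aqp4, Gja1, Aldh1l1, Gfap and Apoe), 5 dendrites carried none of them and no dendrite carried exactly 1. A count of 2 of them was found in 4 dendrites, of 3 in 3 dendrites, of 4 in 3 dendrites and of all 6 in the dendrites of neuron 5. In somas, 4 libraries carried none, 3 carried 1, and 2, 3 and 4 genes were carried by 3 somas each. The dendrites without any were those of neurons 4, 12, 13, 15 and 16, and the somas without any were those of neurons 12, 13, 15 and 16. Thus 11 neurons carried at least 1 of the 6 in both compartments, 4 in neither and neuron 4 in the soma alone, with 20 reads of Aldh1l1 and 73 of Gja1. Counted over exons in place of 3′UTRs, the same numbers of neurons resulted. The number of dendrites with exactly 1 of the 6 depended on the limit: it was 3 at 1 read, 2 at 10 reads scaled to the smallest library and 5 at 100 reads. The pattern is one of 10 reads and not of absence: at 1 read or more, neuron 15 was the only one without any of the 6 in dendrites and neuron 16 the only one in the soma.

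**Figure D4:**
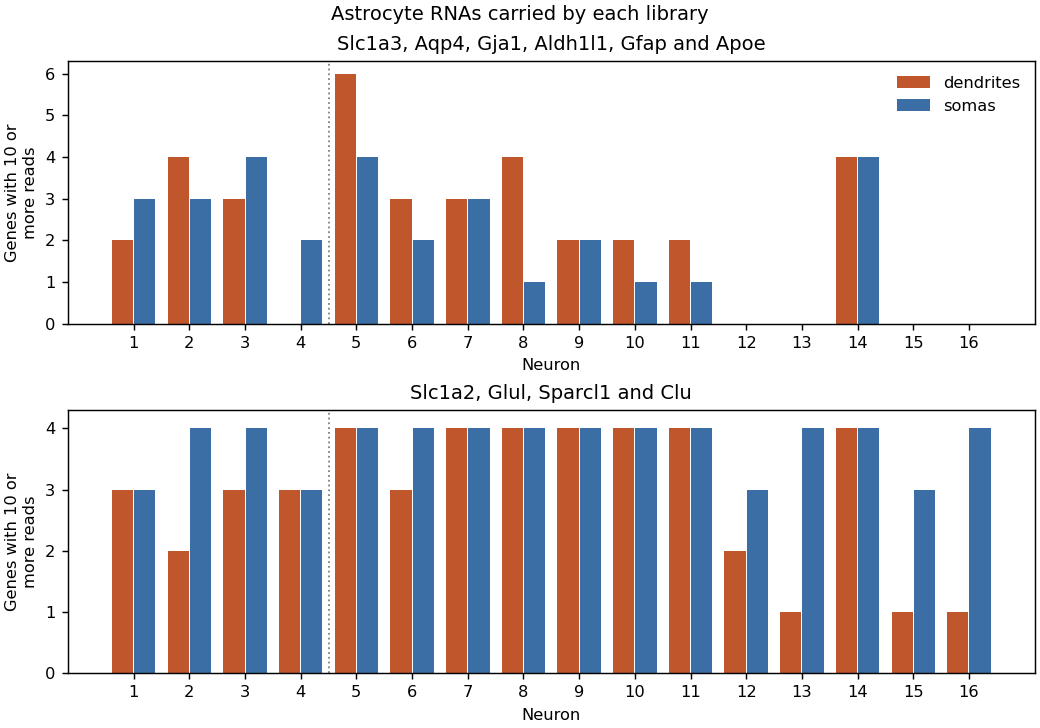
Number of astrocyte genes with 10 or more reads in the dendrites (orange) and soma (blue) of neurons 1 to 16, for the 6 genes found in few somas (upper) and the 4 found in most somas (lower); the dotted line parts the neurons of 3 and of 2 amplification rounds. Neurons 12, 13, 15 and 16 show none of the 6 in either compartment, and neuron 5 shows all 6 in dendrites.

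The overlap of single genes over dendrites followed the same libraries. Each of the 5 dendrites with Gja1, the 3 with Aldh1l1 and the 2 with Gfap also carried Slc1a3, which was in 9 of 16. Slc1a3 and Apoe were in 9 dendrites each and shared 7, which is 77.8% of each. Aqp4 and Slc1a3 shared 5 dendrites, 71.4% of those with Aqp4 and 55.6% of those with Slc1a3. Aqp4 and Aldh1l1 shared 1 dendrite, that of neuron 5, so the 6 were not carried as one fixed set.

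Depth and the number of detected genes stood beside this pattern as follows. The dendrites of neurons 4, 12, 13, 15 and 16 had 5500, 3794, 5617, 1570 and 2485 detected genes, where the median of the 16 dendrites was 6052.5, and the dendrites of neurons 5 and 14, with 6 and 4 of the 6, had 9871 and 8265. The dendrites of neurons 3, 10 and 8 carried 3, 2 and 4 of the 6 with 4781, 5052 and 5731 detected genes, also below that median. The total reads in the dendrites of neurons 4, 12, 13, 15 and 16 were 1580923, 2116175, 1263388, 2235244 and 1736725, close to the median of 1605710. Mitochondrially encoded genes took 35.8% and 32.4% of the reads in the dendrites of neurons 15 and 16. The somas of neurons 12, 13, 15 and 16 had 6041, 9287, 7396 and 9608 detected genes, where the soma median was 9378.5 and 6041 was the lowest of the 16. The part of library complexity in the pattern was not tested. The 4 genes found in most somas were still detected in these libraries, with 3 or 4 of them in each of the 4 somas and 1 or 2 in the dendrites of neurons 12, 13, 15 and 16.

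A limit of 10 reads asks less of a deep library, and the somas were deeper. At one RPM limit for all libraries, 15.5 RPM, which is 10 reads in the smallest, the 10 genes were carried in 45% of the gene and dendrite pairs and 45% of the gene and soma pairs, against 51.3% and 56.3% at 10 reads. For the 6 genes the shares were 27.1% and 17.7% at the common limit and 36.5% and 31.3% at 10 reads, values that the choice of the 6 on soma counts does not let stand as a difference. At the common limit 7 neurons carried at least 1 of the 6 in both compartments, 3 in dendrites alone, 0 in the soma alone and 6 in neither.

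The sum of all 10 genes was 78.3 to 1995 RPM in dendrites (median 883.6) and 287.9 to 6866 RPM in somas (median 945.3), with dendrites higher in 7 of the 16 neurons. The ranges overlapped, and neither compartment was the higher one throughout. The sum of the 6 had a median of 70.2 RPM in dendrites (0 to 576.5) and 13.3 RPM in somas (0 to 178.5). It was higher in the dendrites of 13 neurons, among them neurons 12, 13 and 16 with sums below 2 RPM in both compartments, in 12 of 16 with exon counts and in 11 of 16 with size factors. The sum of Slc1a2, Glul, Sparcl1 and Clu had a median of 770.8 RPM in dendrites (77.2 to 1596) and 895.7 RPM in somas (274.6 to 6858). The opposite order of the sets follows in part from how they were divided. These are shares of the reads of a library, and numbers of molecules were not compared.

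Detection of a gene was also compared between the compartments of the same neuron. The paper reports that genes found in dendrites mostly lay within those of the parent soma. The share over all genes was not computed here, so the shares below are not read as particular to these genes. Over 96 pairs of one of the 6 genes and a neuron, 35 were detected in dendrites and 30 in the soma, and 19 in both, which is 54.3% of the dendrite cases and 63.3% of the soma cases. In 16 pairs the gene was in dendrites alone and in 11 in the soma alone. For the 4 genes found in most somas, 46 of 47 dendrite cases (97.9%) had the gene in the soma, a share fixed almost entirely by their choice since 60 of their 64 soma pairs were detected. The exception was Slc1a2 in neuron 4, with 191 reads in dendrites and 3 in the soma. Aqp4 was in dendrites alone in 4 neurons and Gja1 in 5, whereas Aldh1l1 was in the soma alone in 4.

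The first letter of the sample titles, whose meaning the labels do not give, is set beside the 6 genes here. In the 2 neurons with the letter B the dendrites carried 2 to 4 of them at a sum of 105.2 to 298.4 RPM, and in the 2 with H 0 to 3 at 0.633 to 223.9 RPM. In the 4 neurons with the letter I (5 to 8) the dendrites carried 3 to 6 of them at a sum of 92.6 to 576.5 RPM, and Slc1a3 was detected in 4 of 4. In the 3 neurons with M the dendrites carried 2 each at 12.5 to 47.8 RPM, in the 3 with N 0 to 4, and in the 2 with P none. Its part in the result was not tested. Within the letter N, neuron 14 carried 4 of the 6 in each compartment while neurons 12 and 13 carried none, so neurons of one letter differed.

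The ranges of the 2 and 3 amplification rounds overlapped. The dendrites carried 3 to 6 of the 10 genes at 3 rounds (n = 4) and 1 to 10 at 2 rounds (n = 12), with medians of 5.5 and 6. In somas the medians were 6.5 at 3 rounds and 5 at 2 rounds. The sum of the 6 in somas had a median of 128.2 RPM at 3 rounds and 5.37 RPM at 2 rounds, with overlapping ranges of 13.3 to 178.5 and 0 to 147.2 RPM. In the test of whether the dendrite and soma difference depended on the rounds, 0 genes of 10880 passed with edgeR, 288 had an unadjusted p under 0.05, and none of the 7 astrocyte genes was among these.

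A wider list of 34 genes expressed in astrocytes was read in the same way. Of the 34, 28 were detected in at least 1 dendrite and 31 in at least 1 soma, and a library carried a median of 11 in dendrites and 13.5 in somas. Of these, 19 entered the fit, and 0 rose or fell past the threshold, where 0.827% and 5.71% of all genes did. An unadjusted p under 0.05 was reached by 1, Ptprz1, toward somas (log2 -2.63, p = 0.0195, edgeR quasi-likelihood test), and 17 of the 19 lay above the median gene. With DESeq2, Vim passed as higher in dendrites and Ndrg2 and Ptprz1 as higher in somas, where 4.26% and 46.2% of all genes did. Their median difference was log2 0.30. The most widely detected in dendrites were Cst3, which encodes the protease inhibitor cystatin C, in 15 dendrites and 16 somas, and the metallothionein Mt1 in 15 and 15. Next came the metallothionein Mt2 in 14 and 15 and Dbi in 14 and 16. The median level of Mt2 was 103.9 RPM in dendrites and 33.5 RPM in somas (log2 1.78, SE 1.04, adjusted p = 0.229), a difference within the spread between neurons. The sum of the 34 genes ran from 6.26 RPM in the dendrites of neuron 15 to 3475 RPM in those of neuron 14. In the dendrites that carried none of the 6, those of neurons 4, 12, 13, 15 and 16, it was 843.8, 1019, 1376, 6.26 and 357.6 RPM. The dendrite median was 1088.

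Markers of other cell types were present as well, in lists of other lengths whose sums are not compared with those above. The 11 oligodendrocyte genes summed to a median of 45.5 RPM in dendrites (1.34 to 746.1) and 42.4 RPM in somas (0.0933 to 337.4). Of the 5 that entered the edgeR fit 0 passed, where 0.827% and 5.71% of all genes passed. An unadjusted p under 0.05 was reached by 1, Cnp, toward somas (log2 -3.32, p = 0.0344, edgeR quasi-likelihood test). DESeq2 called Olig1 and Cspg4 higher in dendrites, where it called 4.26% of all genes. Olig1, a transcription factor of that lineage, was detected in 9 dendrites and 9 somas and was highest in the dendrites of neuron 6 at 710.2 RPM, while Mag and Cspg4 were detected in 5 dendrites and 1 soma each. The sums of the oligodendrocyte genes were 746.1 and 724.9 RPM in the dendrites of neurons 6 and 14, which also carried Slc1a3, Aqp4 and Apoe. In the dendrites of neurons 8 and 3, which also carried Slc1a3 and Apoe, these sums were 49.7 and 1.84 RPM. The 10 microglial genes summed to medians of 13.0 and 1.01 RPM. The sum reached 379.9 RPM in the dendrites of neuron 13, where Cx3cr1 had 376 RPM. In somas it reached 183.1 RPM, in neuron 12, where C1qc had 176.6 RPM. C1qb was detected in 3 dendrites and 2 somas, and Ctss in 2 dendrites and 0 somas. C1qc and Itgam were detected in 1 dendrite and 2 somas each, and Csf1r in 0 dendrites and 1 soma. The 5 endothelial genes summed to medians of 1.53 and 0.243 RPM, with Flt1 in 2 dendrites and 3 somas, Pecam1 in 1 of each and Cldn5 at 0 in all libraries. The 5 fibroblast and pericyte genes summed to medians of 1.85 and 0.495 RPM. Col1a2 was detected in 3 dendrites and 1 soma, Dcn and Lum in 0 dendrites and 2 somas each, and Pdgfrb was at 0 in all libraries. Whether these RNAs came with the astrocyte RNAs was not tested.

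Over the 16 dendrites, the genes whose level ran most nearly with the sum of the 10 were Pdlim7 (Spearman's rho 0.92), Gstm1 (0.91), Eno2 (0.87), Fis1 (0.87), Snrpd3 (0.87), Ctdspl2 (0.86), Gm5617 (0.86), Tpm1 (0.85), Kctd1 (0.84) and Tmem30a (0.84), out of 8955 genes detected in at least 4 dendrites. These are the top of many correlations over 16 points that share library complexity: the median gene had a rho of 0.21, and the sum itself had a rho of 0.56 with the number of detected genes, 0.08 with the reads and -0.51 with the mitochondrial share. When each of the 10 was set against the sum of the other 9, Apoe stood closest at 0.93, followed by Glul at 0.60, Slc1a3 at 0.53 and Gfap at 0.46. Aqp4, Gja1, Clu and Slc1a2 had values of 0.31 to 0.38, Sparcl1 0.19 and Aldh1l1 0.12. Apoe thus ran with this sum more closely than any of the 8955 genes. The order depends on the sum, in which Slc1a2 and Sparcl1 weigh most: against the sum of the other genes of the 6, Slc1a3 had a rho of 0.79, Apoe 0.68 and Aldh1l1 0.48, where the median gene had 0.23, and Apoe stood at place 165.

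The reads were also counted over the last 500 bases before each annotated 3′ end. Slc1a3 was the gene of the 10 whose reads were spread over several ends: 7 of its 8 ends had reads, and 5 different ends were the leading one in some library. Of the 7 neurons with 10 or more such reads in both compartments, 3 had the same leading end in dendrites and soma and 4 had different ones. In neuron 3, 262 of 264 reads in the dendrites lay on the fourth end, while 136 of 202 in the soma lay on the second. In neuron 1 the seventh end led in both, with 163 of 191 reads in dendrites and 197 of 200 in the soma. Over all libraries, the seventh end held 9.83% of dendrite reads and 51.3% of soma reads, and the second 30.7% and 14.0%. The dendrites of neuron 8 held 937 of the 1791 dendrite reads, and without them the seventh end held 20.6% and the second 15.7% of dendrite reads, an alternative chosen after seeing the data. These shares were not tested. The predicted gene Gm37310 overlaps Slc1a3 on the same strand. Of the other 9 genes, 8 had the same leading end in every library with 10 or more reads on their ends, and Gja1 had one in 3 dendrites and both of its ends among 2 somas.

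**Figure D5:**
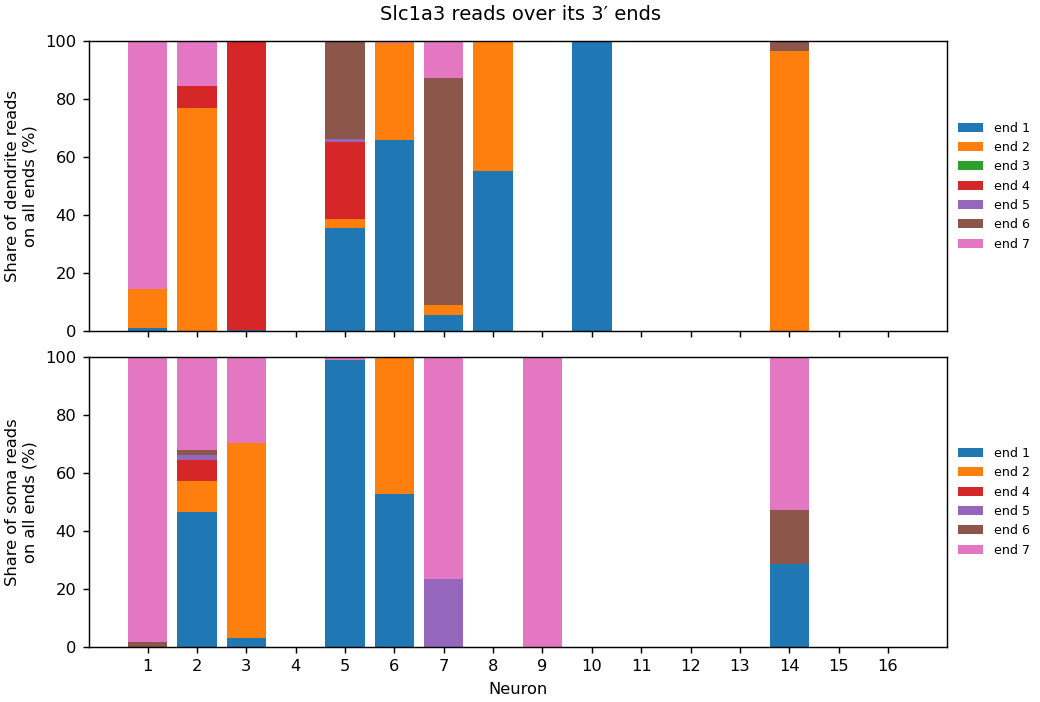
Share of Slc1a3 reads (in percent) on each of its numbered 3′ ends in dendrites (upper) and somas (lower) of neurons 1 to 16, for libraries with 10 or more reads on the ends; neurons without a bar had fewer. The leading end of neuron 1 is the same in both compartments, and that of neuron 3 differs.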

How the data were processed

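RNA from 16 dendrite and 16 soma samples of single neurons was sequenced by the authors with a strand-specific kit and aligned to mm10 with STAR 2.4.0. The deposited values are raw counts of uniquely mapped, strand-assigned reads (VERSE): over the union of the 3′UTRs of a gene, over the last 500 bases before each 3′ end, and over exons with 92 spike-in rows. No values were normalized before deposit. Groups and neuron numbers came from the labels, and 0 pairs of libraries were identical. Levels are reads scaled to 1000000 3′UTR reads of a library (RPM). Differences were fitted on the counts with edgeR 4.0.16 (R 4.3.3; TMM, robust quasi-likelihood) with the neuron as a block, since both compartments come from 1 cell, for genes with at least 1 read in 16 samples, adjusted by Benjamini-Hochberg over 10880 genes and called at 0.05. The scripts were tested on simulated counts. Alternatives were DESeq2 1.42.0, other scalings, filters, exon counts, single amplification rounds and leaving out each neuron. Spike-in scaling was fitted without neurons 1 and 2. The 10 genes and all lists were chosen with earlier results of these data known. Named were the 10 genes, every called gene of a list, otherwise up to 3 genes of a list detected in the most dendrites, the neuronal and housekeeping lists in full, and the 10 genes most like the summed 10. Further genes of a list were named where they tied with these, lay more in somas or had an unadjusted p under 0.05. Positions are those of GENCODE vM21 (mm10). Depth was 646521 to 21169974 reads per sample, and detection limits cover counting error only. Amplified reads are not independent molecules.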

Additional observations from a re-analysis of the deposited data

Results flagged for a closer look

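In the 4 neurons of 3 amplification rounds, a library stood far from the other 3 of its compartment in 4 of the astrocyte values. Such a gap is expected by chance in about 1 of 20 groups examined. This rate holds for normally spread values, and 1 library with reads beside 3 at 0 always shows such a gap. The dendrites of neuron 3 had 701 RPM of Slc1a2, where the next highest had 120.8. The dendrites of neuron 2 had 18.6 RPM of Gja1, where the next highest had 2.95. The soma of neuron 3 had 18.6 RPM of Aldh1l1, where the next highest had 2.77. The soma of neuron 2 had 14.1 RPM of Gfap, where the other 3 had 0.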

How the results depend on the processing

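None of the 7 tested astrocyte genes was called with edgeR, and under the other settings at most 1 was called per direction. DESeq2 called 1 gene higher in dendrites (Aqp4) and 1 in somas (Sparcl1), while median-of-ratios size factors, spike-in scaling and the neurons of 2 rounds alone each called 1 in somas (Sparcl1). Over all genes, 463 were called higher in dendrites and 5029 in somas with DESeq2, 1008 in somas with median-of-ratios size factors, 548 and 92 after rescaling to the median gene, 16 and 6681 with spike-in scaling, 15 and 143 with at least 1 read in 1 sample, 257 in somas with exon counts, 43 and 354 with 2 rounds alone, 4 and 1 with 3 rounds alone, and, in an alternative chosen after seeing the data, 101 in somas without neurons 15 and 16. Without the block on the neuron the counts were 157 and 77, and 0 astrocyte genes were called. Leaving out each neuron in turn gave 56 to 120 genes higher in dendrites and 130 to 990 in somas, and 0 to 1 astrocyte genes called in somas, Sparcl1 without neuron 2, and 0 in dendrites.

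The sign of a difference turned for Slc1a3 (-0.94) and Slc1a2 (-1.68) with spike-in scaling, for Clu (0.61) after rescaling to the median gene and for Sparcl1 (0.60) with 3 rounds alone. For Glul it turned to 1.28 after rescaling, 0.025 with at least 10 reads in 8 samples, 0.77 without the block, 0.15 with exon counts, 0.54 with 3 rounds alone, 0.36 without neurons 15 and 16, and to between 0.06 and 0.29 without neuron 3, 12, 13, 15 or 16, where leaving out single neurons gave -0.49 to 0.29. Apoe and Aqp4 stayed above 0 in every setting, at 0.275 to 2.95 and 0.849 to 4.59. Both were lowest with 3 rounds alone and highest after rescaling to the median gene. With spike-in scaling they were 0.375 and 1.73. Of gene and library pairs, 68.1% were carried in dendrites and 67.5% in somas at 1 read or more, 28.1% and 37.5% at 100 reads or more, 45% in both compartments at the common limit and 65.0% in somas of 3 rounds. For the 6 genes found in few somas these shares were 54.2% and 45.8% at 1 read, 8.33% and 10.4% at 100 reads, 27.1% and 17.7% at the common limit, and 50% in somas of 3 rounds. The median number of genes per library fell to 2 of the 10 in dendrites at 100 reads. For the 6 genes it was 4 in dendrites at 1 read, 0 in dendrites and somas at 100 reads, and 0 in somas at the common limit. Their median sum in somas of 3 rounds was 128.2 RPM. Their sum was higher in dendrites in 12 of 14 neurons without neurons 15 and 16, 12 of 16 with exon counts and 11 of 16 with size factors. The cause of these changes was not tested. Counts near 10 reads, among them those of Gfap, Aldh1l1, Gja1 and Aqp4, are uncertain at this depth, and how much each gene is affected was not tested.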
